A study of Mus musculus with 4 samples.

Results

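A set of 10 secreted proteins that the liver can release in quantity during an acute phase response was followed through the transcripts of Lcn2, Saa1, Saa2, Saa3, Saa4, Orm1, Orm2, Orm3, Apcs and Crp. All probe sets whose platform annotation gives exactly 1 of these symbols were taken, which found 12 probe sets for 10 of the 18193 genes named in this way. The series compared liver of C57BL/6J mice 48 h after partial hepatectomy, in which part of the liver is removed and the remainder regrows, with liver 48 h after a sham operation. The labels call the tissue mature liver and give no sex, age or further genotype. There were 2 hepatectomy arrays and 2 sham arrays, described in the series' design as biological duplicates. The sources do not say how many animals gave RNA to each array, and the p-values reflect array-to-array spread only.

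The acute phase response is a change in what hepatocytes secrete after injury or infection, driven mainly by interleukin 6 through STAT3 and by interleukin 1 and tumour necrosis factor through NF-kB and C/EBP factors. Serum amyloid A proteins travel on high density lipoprotein, orosomucoids are lipocalin-fold glycoproteins that bind drugs and steroids, and pentraxins are ring-shaped pattern recognition proteins. Lipocalin 2, the product of Lcn2, binds bacterial siderophores and withholds iron from bacteria. In mice the pentraxin induced most in an acute phase is serum amyloid P, the product of Apcs, while C-reactive protein, the product of Crp, is only weakly inducible.

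Transcripts of Lcn2, Saa1, Saa2, Orm2, Orm3 and Apcs rose after partial hepatectomy, and none of the members fell. The changes ran from 1.72-fold in a probe set of Saa1 to 37.6-fold in Lcn2. Those of Orm1, Saa4 and Crp did not pass the test, and Saa3 was high in a single hepatectomy array. By limma with Benjamini-Hochberg adjustment over all 27022 probe sets tested, 7 of the 12 probe sets were called higher at an adjusted p of 0.05, where 2.51% of all probe sets were called higher, 0.877% lower and 3.39% in either direction. Counted over genes, with the probe set of the highest mean standing for each, 6 of 10 were called higher, against 3.57% of 12560 genes called higher and 1.09% lower. All 12 probe sets passed the filter on dim values, and their lowest signal on any array was 251. The median log2 fold change over the 10 genes was 1.27, beside 0.025 over all genes tested.

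**Figure D1:**
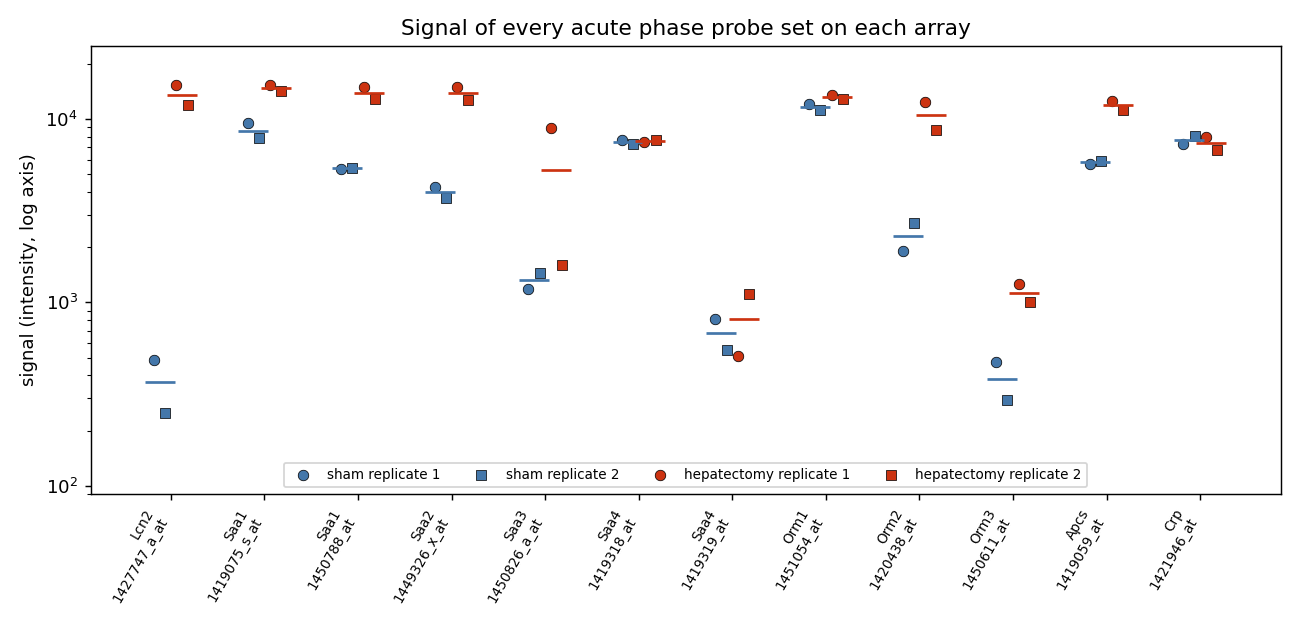
Signal (intensity as deposited, log axis) of the 12 probe sets on each of the 4 arrays, with sham arrays in blue, hepatectomy arrays in red, circles for replicate 1, squares for replicate 2 and lines at the group means. Lcn2 went from 251 to 485 on the sham arrays up to 11858 to 15286 on the hepatectomy arrays, while the points of Saa4 1419318_at and Crp overlap between the groups.

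Signals are intensities on a linear scale, 1 for each probe set and array, which the authors had scaled so that every array had the same trimmed mean. Fold changes are on the scale log2(signal + 8.57), where 8.57 is the 20th percentile of all values, and their errors are standard errors. Probe sets differed by a median of 0.23 on the log2 scale within the sham pair, 0.27 within the hepatectomy pair, and 0.30 to 0.34 across groups. Hepatocyte markers were high on every array, as the tissue label implies: the summed signal of the 8 of 10 listed markers with a probe set lay between 107976 and 124224 on the sham arrays and between 111351 and 118720 on the hepatectomy arrays, and none of them was called. Hepatectomy replicate 1 stood apart in transcripts of the adrenal cortex and of fat. The summed signal of 10 adrenal markers was 22910 there, 3906 in hepatectomy replicate 2 and 2056 to 2622 on the sham arrays. Outside replicate 1 most of that sum came from Mrap and Cyp17a1, at 2530 and 1146 in hepatectomy replicate 2. Cyp11a1 and Cyp11b1 read 2322 and 2673 in replicate 1, but 3.33 and 5.72 in replicate 2. Of the 8 adrenal markers tested, 6 were highest in replicate 1, a share not counted over all genes. Adipocyte markers, 7 of 10 with a probe set, summed to 7244 in hepatectomy replicate 1, 3115 in replicate 2 and 1587 to 1630 on the sham arrays. Fabp4 gave most of that sum on every array, with 1072 and 1264 after sham operation, then 4391 and 2592 after hepatectomy. Values are therefore also given without hepatectomy replicate 1. The median log2 fold change over the 10 genes was then 0.84, beside 0.0074 over all genes tested.

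Lcn2 showed the largest difference of the 12 probe sets. Its signal was 485 and 251 after sham operation, then 15286 and 11858 after hepatectomy. The groups were far apart, with the lower hepatectomy array 24.4 times the higher sham array. The log2 fold change was 5.23 ± 0.29 (SE; 95% interval 4.57 to 5.89; adjusted p = 0.000433), a 37.6-fold rise. It was 5.05 without hepatectomy replicate 1. This probe set, 1427747_a_at, ends in _a_at, a suffix for probe sets that match several transcripts of 1 gene. Over the 4 arrays, the genes whose log2 values around their own mean were nearest to those of Lcn2 among 11954 compared were Hmmr, Prc1 and Esco2, with root mean square differences of 0.43, 0.46 and 0.54. Hmmr encodes a hyaluronan-binding spindle protein, Prc1 a microtubule bundling protein and Esco2 a cohesin acetyltransferase. Both sham arrays read Hmmr under the control level given next.

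Neutrophils also make lipocalin 2, and some transcripts that neutrophils share with other myeloid cells moved with Lcn2. S100a9, which encodes a subunit of calprotectin, had signals of 254 and 236 after sham operation, then 5649 and 2316 after hepatectomy (log2 fold change 3.84 ± 0.36, adjusted p = 0.0015). S100a8, the other subunit, rose from 177 and 110 to 4173 and 1204 (3.93 ± 0.51, adjusted p = 0.00636; with robust eBayes, adjusted p = 0.0978). Both were highest in hepatectomy replicate 1. The granule genes Ngp, Camp, Ltf and Mpo stayed on every array below 20.4, the most that any of 27 control probe sets for Bacillus subtilis transcripts read. Of 16 listed neutrophil genes 14 had a probe set and 6 passed the filter, of which 3 were called higher, beside 3.57% of all genes. The third was Prtn3, a granule protease, with signals of 11.5 and 57.6 against 602 and 1015. Both hepatectomy arrays lay above both sham arrays in 5 of the 6, beside 28.1% of all genes. The exception was Csf3r, with 34.6 and 33.9 against 77.4 and 27.8 (adjusted p = 0.761). Cxcr2 did not pass the filter, with 10.6 and 1.04 against 31.2 and 2.25. The summed signal of the 14 was 545 to 618 on the sham arrays, 12086 in hepatectomy replicate 1 and 4813 in replicate 2. The part of these cells in the Lcn2 signal was not tested. In whole tissue, more cells of a type and more RNA per cell cannot be told apart.

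**Figure D2:**
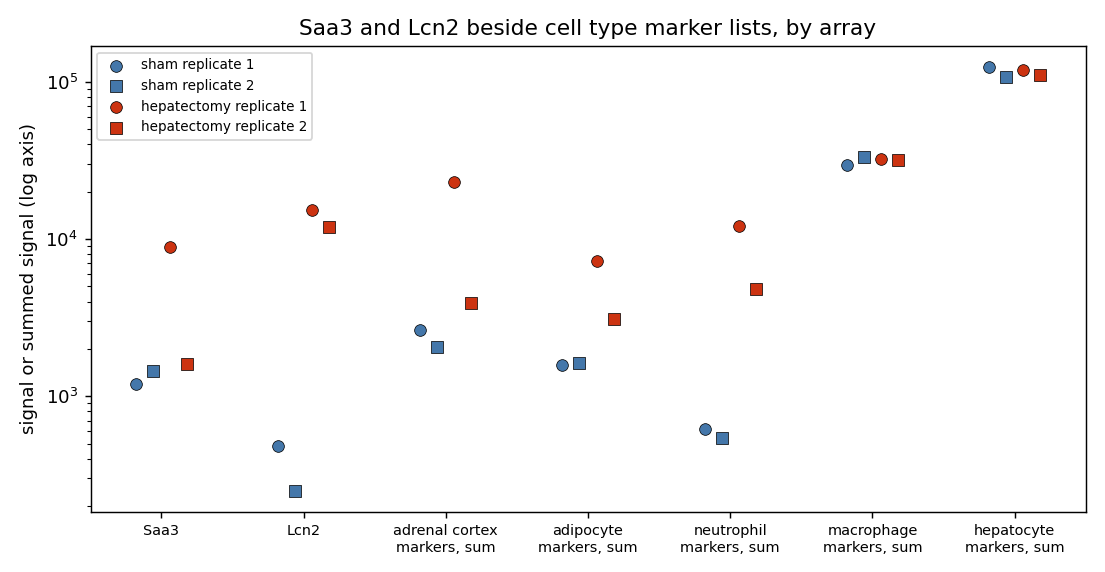
Signals of Saa3 (1450826_a_at) and Lcn2 (1427747_a_at), and summed signals of 5 cell type marker lists, on each of the 4 arrays (log axis; blue sham, red hepatectomy, circles replicate 1, squares replicate 2). Saa3 and the adrenal and adipocyte sums are set apart by hepatectomy replicate 1, whereas Lcn2 is high on both hepatectomy arrays and the hepatocyte sums lie between 107976 and 124224 on all 4.

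The serum amyloid genes fell into 3 patterns. Saa1 and Saa2, the inducible forms that hepatocytes secrete, rose in every probe set. Probe set 1450788_at of Saa1 had signals of 5350 and 5395 after sham operation, then 14854 and 12765 after hepatectomy. The sham arrays nearly coincided, and the rise of 2.56-fold (log2 fold change 1.36 ± 0.12, adjusted p = 0.00114) was larger than the spread in either group. The second probe set of Saa1, 1419075_s_at, read 9448 and 7828 against 15374 and 14181. Its rise was 1.72-fold (0.78 ± 0.12, adjusted p = 0.0144), and its 95% interval of 0.50 to 1.06 ended below the lower end of the interval of 1450788_at, 1.09 to 1.63.

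Saa2, measured by 1449326_x_at, had signals of 4256 and 3703 after sham operation, then 14846 and 12731 after hepatectomy. The rise was 3.46-fold (log2 fold change 1.79 ± 0.13, adjusted p = 0.000722), with both hepatectomy arrays at least 2.99 times every sham array. The assignment of these signals to single genes is uncertain. Names ending in _s_at mark probe sets shared by transcripts of different genes, and those in _x_at hold probes that may bind other sequences. The annotation pairs 1419075_s_at with Saa1, while its accession is the RefSeq transcript of Saa2, the same accession as that of 1449326_x_at. RefSeq lists each of these symbols as a synonym of the other. Of the 12 probe sets, 9 have an accession that RefSeq gives to the annotated gene and 1 an accession of another gene; that of the Lcn2 probe set was not matched, and the annotation gives none for the Orm1 probe set.

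The upstream regions of the Saa1 and Saa2 genes, which are neighbours among protein-coding genes, are shown because they are almost the same sequence. Over the 250 bases before the RefSeq start of each (build GRCm38.p6), 238 of 251 aligned positions were identical, 94.8%. Capitals mark matches to TTNNGCAA on either strand, letters that C/EBP factors can bind.
Saa1 (chr7:46742981-46743230, minus strand): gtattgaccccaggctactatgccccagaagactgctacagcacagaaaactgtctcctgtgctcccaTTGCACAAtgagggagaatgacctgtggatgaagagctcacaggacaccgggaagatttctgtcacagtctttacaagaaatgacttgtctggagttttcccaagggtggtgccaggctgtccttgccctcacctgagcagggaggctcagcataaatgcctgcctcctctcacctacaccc
Saa2 (chr7:46751583-46751832, plus strand): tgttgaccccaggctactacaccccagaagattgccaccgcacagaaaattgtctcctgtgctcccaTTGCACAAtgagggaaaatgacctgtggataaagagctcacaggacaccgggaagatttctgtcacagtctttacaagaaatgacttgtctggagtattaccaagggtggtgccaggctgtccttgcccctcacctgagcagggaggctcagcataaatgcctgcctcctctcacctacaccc
Each holds 1 match, TTGCACAA, which begins 182 bases before the start in Saa1 and 183 bases before it in Saa2.

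Saa4, the constitutive serum amyloid A of lipoprotein particles, did not show such a rise. Probe set 1419318_at had signals of 7656 and 7313 after sham operation, then 7485 and 7639 after hepatectomy. The groups overlapped, and the log2 fold change of 0.015 ± 0.11 had a 95% interval of -0.23 to 0.27 (adjusted p = 0.967). The other Saa4 probe set, 1419319_at, scattered more, with signals of 817 and 553 against 511 and 1114. Its highest and lowest values were both on hepatectomy arrays, and its interval of -0.66 to 0.99 on the log2 scale was wide (adjusted p = 0.874). The sign of both Saa4 probe sets turned with single arrays or with median centring, and neither was called in any of 13 alternative settings.

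Saa4 lies between Saa3 and Saa1 among the protein-coding genes of its chromosome. Its upstream sequence is shown beside those of Saa1 and Saa2, since the 3 genes are neighbours and the transcripts of Saa1 and Saa2 were called while that of Saa4 was not. It also holds matches to TTNNGCAA.
Saa4 (chr7:46732604-46732853, minus strand): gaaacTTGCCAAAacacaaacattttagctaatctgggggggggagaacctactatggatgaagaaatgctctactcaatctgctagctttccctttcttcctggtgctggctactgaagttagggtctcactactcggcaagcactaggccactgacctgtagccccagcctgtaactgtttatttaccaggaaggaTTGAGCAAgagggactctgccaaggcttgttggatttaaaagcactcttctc
The matches were TTGCCAAA, 245 bases before the start, and TTGAGCAA, 52 bases before it.

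Saa3, a serum amyloid A made largely outside hepatocytes, by macrophages and fat cells among others, was read by 1450826_a_at. Its signals were 1189 and 1451 on the sham arrays, 8919 in hepatectomy replicate 1 and 1596 in replicate 2. Replicate 2 stood 1.10 times the higher sham array, so nearly all of the difference came from 1 array. The log2 fold change was 1.52 ± 0.64 (95% interval 0.047 to 2.99; adjusted p = 0.285), with a value of 0.28 (adjusted p = 0.583) without hepatectomy replicate 1 and 2.76 (adjusted p = 7.44e-06) without replicate 2. Replicate 1 was also the array with the highest fat markers. Adipoq, the adiponectin gene, read 4.02 and 6.29 on the sham arrays, 574 in hepatectomy replicate 1 and 56.3 in replicate 2, and Retn, the resistin gene, read 13.0 and 19.1 against 284 and 13.8. From the same list, Fabp4 was high on both hepatectomy arrays (4391 and 2592), and Pparg differed little (361 and 298 against 363 and 242). Macrophage markers, all 16 with a probe set, summed to 29566 and 33085 on the sham arrays, 32318 in replicate 1 and 31908 in replicate 2. Of the 15 tested, 1 was called higher and 1 lower, beside 4.67% of all genes in either direction. Both are named here after their values were seen. Hepatectomy replicate 1 was the highest array in 6 of the 15, a share not counted over all genes. Ccr2, not called, was among them, with 61.2 and 70.2 against 303 and 70.5. Marco, a scavenger receptor of macrophages, read 241 and 172 against 3194 and 1670, highest in replicate 1 as Saa3 was (log2 fold change 3.45 ± 0.32, adjusted p = 0.00145), and was called in all 13 alternative settings, at 2.98 without that array. Csf1r, the receptor of macrophage colony-stimulating factor, read 3761 and 3651 against 2216 and 2339 (-0.70 ± 0.13, adjusted p = 0.0317). It lost the call without sham replicate 1 (adjusted p = 0.217), sham replicate 2 (0.140) or hepatectomy replicate 1 (0.0609). The part of the macrophage, fat or adrenal transcripts in the Saa3 signal was not tested.

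Orosomucoids, the alpha-1-acid glycoproteins, come from 3 neighbouring genes in the order Orm1, Orm3, Orm2. Orm2 had signals of 1901 and 2716 after sham operation, then 12372 and 8726 after hepatectomy. The lower hepatectomy array was 3.21 times the higher sham array, and the rise was 4.56-fold (log2 fold change 2.19 ± 0.21, adjusted p = 0.0018). It came second after Lcn2 in size. Orm3 had signals of 472 and 293 against 1260 and 1001, and rose 2.97-fold (1.57 ± 0.26, adjusted p = 0.0187). Its call was lost without sham replicate 2, where the log2 fold change was 1.24 (adjusted p = 0.0981). Orm1 differed little, with signals of 12100 and 11183 after sham operation, then 13518 and 12906 after hepatectomy. The groups did not overlap, as in 24.4% of all probe sets with both hepatectomy arrays on top, but the log2 fold change of 0.18 ± 0.10 was not called (95% interval -0.050 to 0.42; adjusted p = 0.426). All 3 orosomucoid probe sets have plain names ending in _at, and their 95% intervals place Orm1 below Orm2 and Orm3, while those of Orm2 (1.69 to 2.68) and Orm3 (0.96 to 2.18) overlap. On the sham arrays Orm1 already read 11183 or more, and Orm2 at most 2716. Whether fold changes compare across such unlike signals was not tested.

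The promoters of Orm2 and Orm3 are shown as the pair of this cluster that rose; none is printed for Orm1. In the 250 bases before their starts, 219 of 255 aligned positions were identical, 85.9%, and the match to TTNNGCAA sits at nearly the same place.
Orm2 (chr4:63362199-63362448, plus strand): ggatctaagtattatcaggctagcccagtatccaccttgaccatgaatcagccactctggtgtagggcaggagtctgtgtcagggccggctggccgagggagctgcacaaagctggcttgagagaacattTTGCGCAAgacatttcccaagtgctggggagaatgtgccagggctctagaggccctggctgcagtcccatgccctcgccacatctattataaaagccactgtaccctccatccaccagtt
Orm3 (chr4:63355908-63356157, plus strand): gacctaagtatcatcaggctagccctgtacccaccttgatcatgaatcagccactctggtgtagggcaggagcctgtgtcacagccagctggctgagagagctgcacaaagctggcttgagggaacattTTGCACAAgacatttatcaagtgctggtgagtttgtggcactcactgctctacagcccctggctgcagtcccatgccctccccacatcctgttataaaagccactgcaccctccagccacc
The 8 bases in capitals are TTGCGCAA in Orm2, which reads the same on both strands, and TTGCACAA in Orm3, beginning 120 and 121 bases before the start. Lcn2 has a match too, TTGCTCAA, 216 bases before its start.
Lcn2 (chr2:32387740-32387989, minus strand): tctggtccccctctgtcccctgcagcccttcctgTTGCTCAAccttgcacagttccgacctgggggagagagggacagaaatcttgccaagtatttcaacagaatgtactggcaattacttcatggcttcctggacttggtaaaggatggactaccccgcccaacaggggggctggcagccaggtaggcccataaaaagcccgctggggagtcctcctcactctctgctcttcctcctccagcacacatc
Of the 9 members with an entry in the RefSeq promoter table, 7 held a match to TTNNGCAA, a motif found in 9.56% of 32851 windows of the same length. These include Saa3 and Saa4, whose transcripts were not called, and leave out Apcs, whose transcript rose, and Crp. The 9 windows are not independent, since those of Saa1 and Saa2 (94.8% identical) and of Orm2 and Orm3 (85.9%) are near copies. Each such pair shares its match at nearly the same place. A STAT-type motif, TTCNNNGAA, matched in 1 of the 9 (Apcs) and in 7.02% of all windows, and an NF-kB-type motif, GGG and CC with any 5 bases between, in 5 of the 9 and in 45.8% of all windows. Both strands were searched. A match describes the letters in this window and was not tested as a binding site.

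The pentraxins parted. Apcs had signals of 5704 and 5886 after sham operation, then 12468 and 11249 after hepatectomy, with little spread within either group. It rose 2.04-fold (log2 fold change 1.03 ± 0.11, adjusted p = 0.00287), and the lower hepatectomy array was 1.91 times the higher sham array. Crp, its neighbour among protein-coding genes, had 7316 and 8054 after sham operation, then 8009 and 6758 after hepatectomy. The groups overlapped, and the log2 fold change was -0.061 ± 0.13 (adjusted p = 0.868). Its 95% interval, -0.36 to 0.23, ended below that of Apcs, which began at 0.77. Each is read by 1 probe set with a plain _at name.

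In order of size the log2 fold changes were those of Lcn2, Orm2, Saa2, Orm3, Saa3, Saa1 (1450788_at), Apcs, Saa1 (1419075_s_at), Orm1, both Saa4 probe sets and Crp. The step from Lcn2 to Orm2, 3.05, was 8.51 times the standard error that the 2 would have if independent. That from the lower Saa1 probe set to Orm1, 0.60, was 3.75 times it, and that between the 2 Saa1 probe sets with Apcs between them was split into 0.33 and 0.25. Steps among Saa2, Orm3, Saa3 and Saa1 1450788_at were 0.22, 0.055 and 0.16, each smaller than its standard error. The members were measured on the same 4 arrays, so these errors are only a guide. Sham signals differed widely as well, from 251 in Lcn2 to 12100 in Orm1, and how this bears on the order was not tested. The genes whose pattern was nearest to that of Saa1, by 1419075_s_at, were Spaca4, Scaper and Gipc1, with root mean square differences of 0.016, 0.021 and 0.030. None of these 3 was called (adjusted p from 0.134 to 0.325). The assignment of 1419075_s_at to Saa1 is uncertain, and the search was not made with 1450788_at. Nearness over 4 arrays was not tested.

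**Figure D3:**
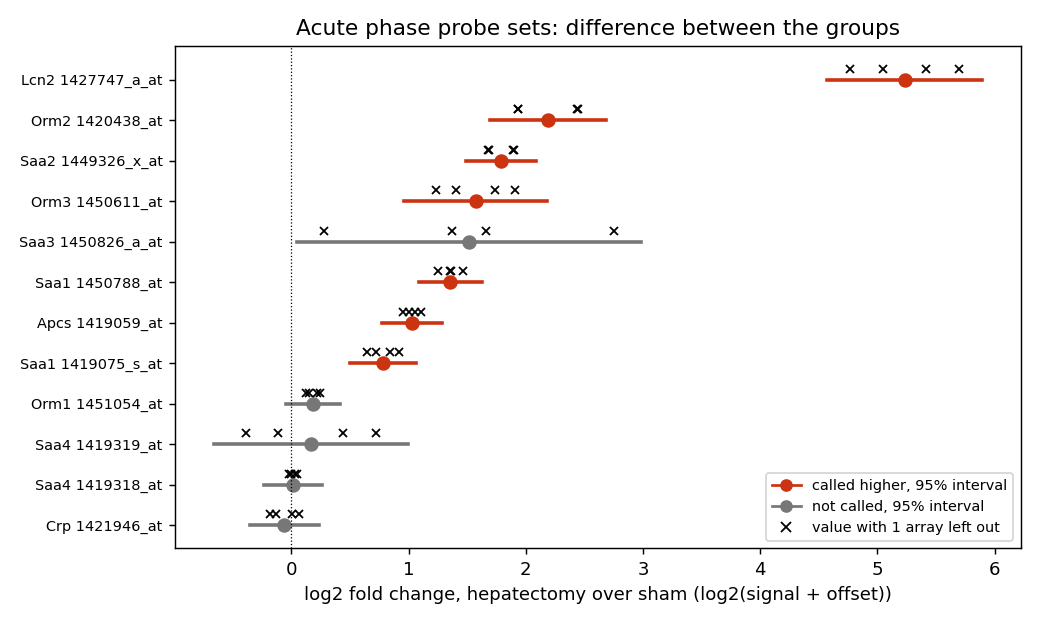
Log2 fold change of each probe set, hepatectomy over sham, with its 95% interval (red called higher, grey not called) and crosses for the values with each array left out in turn. The crosses of Saa3 run from 0.28 to 2.76 and those of Lcn2 from 4.77 to 5.70.

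Of the 8 probe sets with a plain _at name 4 were called higher, those of Saa1, Orm2, Orm3 and Apcs, beside 2.51% of all probe sets. When probe sets with _x_at, _s_at or _a_at names were left out, 480 of 21649 were called higher. The calls of Lcn2 and Saa2 rest on probe sets with an _a_at or _x_at name. Lcn2 and Saa2 were called in all 13 alternative settings. Without a mean-variance trend in the variance model, they were the only members called, and the other adjusted p-values of the called probe sets lay between 0.0618 and 0.208.

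Of 40 further positive acute phase genes 30 were tested, and 5 were called higher and 1 lower, beside 4.67% of all genes in either direction. Their median log2 fold change was 0.22. Lrg1, a leucine-rich glycoprotein, read 4615 and 5742 against 11884 and 10919 (1.14 ± 0.14, adjusted p = 0.00395). Mt1, a metallothionein that binds zinc, read 5660 and 4139 against 12527 and 10480 (1.24 ± 0.17, adjusted p = 0.00771). Both hepatectomy arrays exceeded both sham arrays in each gene, as in 28.1% of all genes. Fgl1, a fibrinogen-like secreted protein, rose by 0.81 ± 0.14 (adjusted p = 0.0201), and Lbp, which presents lipopolysaccharide to CD14, rose by 1.10 ± 0.21 (adjusted p = 0.0317). The remaining calls, named after their values were seen, were Nnmt, a nicotinamide methyltransferase (0.57, adjusted p = 0.047), and Tff3, a trefoil peptide, which fell by 1.25 (adjusted p = 0.0343). Without hepatectomy replicate 1, 4 were called higher and 1 lower, and without replicate 2, 10 and 2. Lbp, Nnmt and Tff3 lost their calls without either sham replicate (adjusted p from 0.106 to 0.291), Fgl1 without sham replicate 1 (adjusted p = 0.0582) and Nnmt without hepatectomy replicate 1 (adjusted p = 0.171).

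Several classical acute phase products showed no call. Haptoglobin (Hp), which binds free haemoglobin, had signals of 13626 and 11367 after sham operation, then 15320 and 13820 after hepatectomy (0.23 ± 0.12, adjusted p = 0.41). Fga, the fibrinogen alpha chain, differed by 0.088 ± 0.10 (adjusted p = 0.748), and Hamp, which encodes the iron hormone hepcidin, by 0.020 ± 0.13 (adjusted p = 0.963). Serpina3n, a serine protease inhibitor, differed by 0.52 ± 0.18 (adjusted p = 0.182). On the sham arrays the signals of Hp, Fga and Hamp were already 11367 or more.

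Among 22 negative acute phase genes, products that usually fall in inflammation, 20 were tested, and 1 was called higher and none lower by limma, near the 4.67% of all genes called in either direction. An unadjusted p under 0.05 was found for 1, beside 19.9% of all genes. The median was -0.069. Albumin (Alb) differed by -0.086 ± 0.11 (adjusted p = 0.777) and transthyretin (Ttr) by -0.069 ± 0.10 (adjusted p = 0.803). The call was Serpina7, thyroxine-binding globulin, which rose from 974 and 2398 to 5432 and 5726 (1.86 ± 0.35, adjusted p = 0.0292; with robust eBayes, adjusted p = 0.195).

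**Figure D4:**
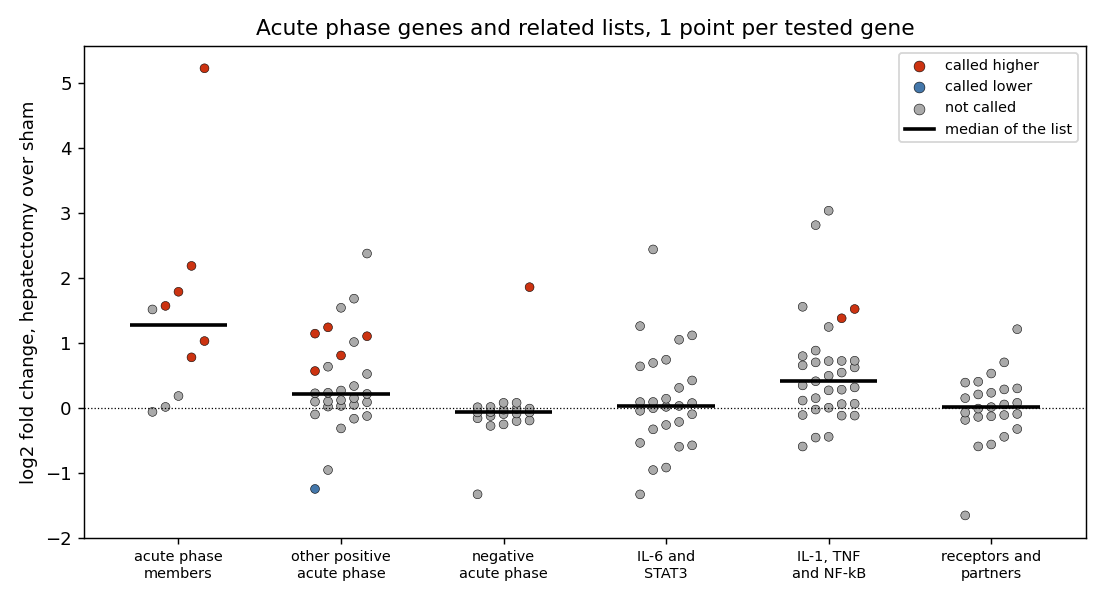
Log2 fold change of each tested gene of the 10 members and of 5 related lists (red called higher, blue called lower, grey not called, black line the median of the list). The median of the members is 1.27, that of the other positive acute phase genes 0.22 and those of the other lists between -0.069 and 0.41.

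Signals upstream of the acute phase were mostly below the threshold. None of 27 tested genes of interleukin 6 and STAT3 signalling was called by limma, while 7 had an unadjusted p under 0.05, beside 19.9% of all genes; the median was 0.031. Socs3, the feedback inhibitor that STAT3 induces, read 936 and 508 after sham operation, then 2165 and 1280 after hepatectomy (1.26 ± 0.33, adjusted p = 0.0936). Stat3 itself read 1317 and 1154 against 1956 and 2042 (0.69 ± 0.16, adjusted p = 0.0613), and the receptor subunit gene Il6ra 2197 and 1642 against 884 and 1132 (-0.92 ± 0.21, adjusted p = 0.0574). The groups did not overlap for these 3 genes, as in 47.7% of all probe sets in either direction, and none passed. Both hepatectomy arrays lay above both sham arrays in 6 of the 27 genes, 22.2%, beside 28.1% of all genes. Il6 lay under the control level of 20.4 on all 4 arrays and was not tested. The C/EBP factor genes Cebpb (0.14 ± 0.20) and Cebpd (-0.0044 ± 0.24) had adjusted p-values of 0.791 and 0.996. The median of this list was -0.019 without hepatectomy replicate 1 and 0.071 without replicate 2, beside 0.0074 and 0.044 over all genes tested.

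In the list of interleukin 1, tumour necrosis factor and NF-kB genes, 2 of 33 tested were called higher and none lower, 6.06%, near the 4.67% of all genes called in either direction. The median was 0.41. By limma, an unadjusted p under 0.05 was found for 13 of the 33, beside 19.9% of all genes. Both hepatectomy arrays lay above both sham arrays in 15 of the 33, 45.5%, beside 28.1% of all genes. Nfkbiz, an atypical NF-kB inhibitor protein that is a coactivator of acute phase genes, read 414 and 454 after sham operation, then 1563 and 1021 after hepatectomy (1.52 ± 0.24, adjusted p = 0.0142). Il33, an alarmin cytokine of the interleukin 1 family, read 124 and 176 against 458 and 350 (1.38 ± 0.28, adjusted p = 0.0384). Both lost the call without sham replicate 1 (adjusted p of 0.11 and 0.271) or sham replicate 2 (0.0657 and 0.0824), and Il33 also without hepatectomy replicate 1 (0.0754). Hepatectomy replicate 1 was the highest array in 22 of the 33 genes, a share not counted over all genes. It was also the highest in 19 of the 30 tested genes of the other positive acute phase list. Without it the median was 0.20, and without replicate 2 it was 0.67, beside 0.0074 and 0.044 over all genes tested. Nfkbia, the NF-kB inhibitor that NF-kB induces, differed by -0.12 ± 0.12 (adjusted p = 0.699) and Il1b by 0.41 ± 0.33 (adjusted p = 0.605). Tnf did not pass the filter, with signals of 15.4 and 22.3 after sham operation, then 48.2 and 7.99 after hepatectomy.

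Receptors and binding partners of the 10 proteins were listed as 28 genes, of which 25 were tested. None was called by limma, 6 had an unadjusted p under 0.05, where 19.9% of all genes did, and the median was 0.012. Slc22a17, which encodes a cell surface receptor of lipocalin 2, had signals of 43.3 and 58.8 after sham operation, then 83.9 and 56.3 after hepatectomy (0.39 ± 0.37, adjusted p = 0.673). Fpr2, a formyl peptide receptor that binds serum amyloid A, read 331 and 243 against 377 and 192 (-0.072 ± 0.34, adjusted p = 0.949). The groups overlapped in both.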

How the data were processed

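Labelled cRNA from total liver RNA was measured on 4 Affymetrix arrays. The authors deposited 1 intensity per probe set and array on a linear scale, and the submitters' processing notes name GCOS 1.4. No source used here gives its settings, detection calls or scan times, and no batch was tested. After trimming 2% at each end every array had a mean of 500, so scaling preceded deposit. Of 45101 probe sets 64 controls were left out; 34945 of the rest had 1 symbol in the platform annotation, 932 several and 9160 none.

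Signals were turned to log2 after adding 8.57 (20th percentile of all values). Probe sets under the 40th percentile of mean log2 were left out, which kept 27022. Groups were compared with lmFit and eBayes (mean-variance trend) of limma 3.58.1 in R 4.3.3, two-sided, Benjamini-Hochberg adjusted, called at 0.05, with 2 residual and 6.02 prior degrees of freedom. A gene was represented by its tested probe set with the highest mean. An exact permutation test of 2 against 2 arrays cannot go below p = 0.333 and was not used. The code was tested on simulated data.

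The members and lists were chosen with earlier results of these data known. Named genes were all members, up to 4 called genes of each pathway list by adjusted p, a short set named in any case and the 3 genes nearest to Lcn2 and to Saa1. Promoter sequences are RefSeq's (GRCm38.p6), found for 9 of 10 members. Precision is limited by having 4 arrays.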

Additional observations from a re-analysis of the deposited data

How the results depend on the processing

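Over the 12 acute phase probe sets and 13 alternatives, 140 values kept direction and side of the threshold. The weaker values came without a trend, without a filter on dim probe sets (Orm3, adjusted p = 0.0758; Saa1 1419075_s_at, 0.09) or without sham replicate 2 (Orm3). Signs turned only in uncalled values. With median centring, Saa4 1419318_at came to -0.071 and Hamp to -0.066. With each array left out in turn the log2 fold change ran from -0.18 to 0.061 for Crp, -0.018 to 0.048 for Saa4 1419318_at, -0.39 to 0.72 for Saa4 1419319_at, -0.21 to 0.041 for Alb, -0.061 to 0.34 for Cebpb, -0.26 to 0.25 for Cebpd, -0.0060 to 0.18 for Fga, -0.54 to 0.40 for Fpr2, -0.13 to 0.17 for Hamp, -0.014 to 0.84 for Il1b and -0.15 to 0.016 for Ttr. The causes were not tested.

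Counts changed more. Calls fell from 916 probe sets and 586 genes to 308 and 218 without the filter and to 258 and 173 without a trend. Without 1 array they ran from 341 to 2012 probe sets and from 232 to 1250 genes. Acute phase probe sets and genes called were 2 and 2 without a trend; 4 probe sets were called with plain _at names only, since 4 of the 12 drop out, and without 1 array 6 to 8 probe sets and 5 to 7 genes. The other positive acute phase genes gave 1 call without the filter, 0 without a trend, 3 when probe sets of a gene were averaged and 3 to 12 without 1 array. The negative ones gave 0 without the filter, without a trend, with robust eBayes or when probe sets were averaged, and 1 to 2 without 1 array. Interleukin 6 and STAT3 genes gave 2 with median centring, 1 with quantile normalization, 4 with a filter at the 60th percentile, 3 with robust eBayes, 2 with plain names only and 0 to 7 without 1 array. Interleukin 1 and NF-kB genes gave 6 with median centring, 0 without the filter or without a trend, 1 when probe sets were averaged and 0 to 11 without 1 array. Receptors and partners gave 1 with quantile normalization, 1 when probe sets were averaged and 0 to 3 without 1 array.

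The labels give both groups replicate numbers 1 and 2. Deviations of same-numbered arrays from their group means correlated at 0.10 over 27022 probe sets, and the labels tie the numbers to no shared animal or day, so they were not taken as pairs. With the replicate number as a block, 1943 probe sets and 1189 genes were called, with 12, 2, 8, 9 and 2 in the 5 related lists in the order above. Saa3 was then called (1.52, adjusted p = 0.0155), as were Socs3, Stat3, Il6ra and Serpina3n.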
